A study of Equus caballus with 24 samples.

Results

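Cells show fragments of their own proteins on MHC class I molecules, which consist of a polymorphic heavy chain and beta-2-microglobulin. The immunoproteasome cuts the fragments, the TAP transporter carries them into the endoplasmic reticulum, and NLRC5 drives transcription of these genes. MHC class II molecules present proteins taken up from outside, mainly on leukocytes, and depend on the regulator CIITA and the invariant chain CD74. The genes of this system taken by symbol were EQMHCC1 (an equine class I heavy chain), B2M, TAP1, TAP2, PSMB8, PSMB9, NLRC5, CIITA and CD74. A row with the symbol was found for 8 of these 9 genes in both deposited files, among 24232 genes with reads. TAP2 was not found by symbol. ENSECAG00000007152, which the files describe as antigen peptide transporter 2 and give no symbol, was read beside the 8 genes and was not counted among them. The files name genes by Ensembl identifier and symbol and hold no coordinates. In the horse RefSeq annotation of another assembly (TB-T2T), TAP2, PSMB8, TAP1 and PSMB9 are consecutive entries. The genes were chosen by a rule written with the breed results known, so their breed differences are given as a description without a test.

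The libraries came from the pituitary and the long bone epiphysis of female Debao ponies (DPs), a small Chinese breed, and female Mongolian horses (MHs), collected at slaughter. There were 8 groups of 3 libraries, for which P stands for pituitary, LB for long bone, J for juvenile and A for adult. These were DPPJ, DPPA, MHPJ, MHPA, DPLBJ, DPLBA, MHLBJ and MHLBA. The labels name no treatment and give the stage only, and the study describes yearlings as juveniles and horses some years older as adults. By its methods each replicate of a group was a different horse and both tissues came from the same horses. Neither the methods nor the labels say that a replicate number is the same horse in both tissues. Each library held 11433209 to 27007342 reads on genes. Levels below are CPM, read counts relative to the library total after TMM over the 24 libraries, and RPKM, which also divides by gene length, is used where genes are compared with each other.

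The tissue labels were checked against marker genes. The summed level of 5 pituitary hormone genes was 11009 to 33507 CPM in 7 pituitary libraries and 0.126 to 14.6 CPM in the other 5, which were MHPJ replicates 1 to 3, DPPA replicate 1 and MHPA replicate 1. TSHB and FSHB had at most 3 reads in every MHPJ library. In these 5 libraries the summed level of 5 markers of the neurohypophysis and glia was 3486 to 18294 CPM, against 65.2 to 4282 CPM in the other 7. The high value among the 7 was DPPJ replicate 2. The label pituitary therefore covers libraries with and without hormone transcripts, and results that rest on the pituitary are given below for both kinds where this was possible. Summed over 7 genes, the long bone markers reached 5340 to 89902 CPM in the long bone libraries and 71.7 to 2198 CPM in the pituitary libraries.

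Per length, B2M and CD74 were by far the most abundant of the 8 genes in both tissues. Their median RPKM over 12 pituitary libraries was 383 and 226, and over 12 long bone libraries 472 and 540. The ranges of both genes overlapped in each tissue. PSMB8, a catalytic subunit of the immunoproteasome, followed with a median RPKM of 16.7 in the pituitary and 53.3 in the long bone. TAP1 (2.55 and 8), PSMB9 (1.77 and 3.62), CIITA (1.32 and 4.71) and NLRC5 (0.79 and 2.62) had lower median RPKM in the pituitary and the long bone, and their ranges overlapped. EQMHCC1 had a median RPKM of 0.585 in the pituitary and 1.9 in the long bone, but reached 58.4 and 66 in single libraries.

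EQMHCC1 (ENSECAG00000019928, described in the files as an MHC class I antigen) was high in a few libraries and low in the rest. The DPPJ libraries had 12, 1185 and 18 reads of it, the MHPJ libraries 8, 4 and 11, the DPPA libraries 4, 22 and 30, and the MHPA libraries 388, 79 and 1279. The DPLBJ libraries had 28, 1585 and 14 reads, the MHLBJ libraries 30, 18 and 90, the DPLBA libraries 29, 16 and 65, and the MHLBA libraries 336, 270 and 1125. The high libraries were thus replicate 2 of the juvenile DPs and all replicates of the adult MHs, in both tissues. The 4 highest libraries of the pituitary were MHPA replicate 3 (74.8 CPM), DPPJ replicate 2 (54 CPM), MHPA replicate 1 (26.1 CPM) and MHPA replicate 2 (4.42 CPM). The 4 highest of the long bone carried the same 4 breeds, stages and numbers, with 118 CPM in DPLBJ replicate 2 and 85.3, 29.3 and 10.1 CPM in MHLBA replicates 3, 1 and 2. The remaining 8 libraries lay between 0.191 and 1.44 CPM in the pituitary and between 0.808 and 4.35 CPM in the long bone.

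**Figure D1:**
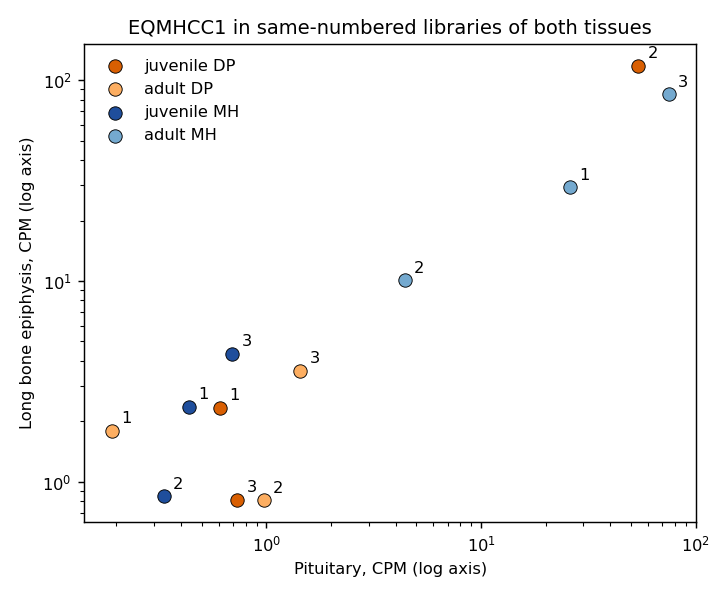
EQMHCC1 in CPM in the pituitary (x axis, log) against the long bone (y axis, log). Each point is the pair of libraries with the same breed, stage and replicate number, which is printed beside it. Replicate 2 of the juvenile DPs and the 3 adult MHs lie at the upper right. They are at or above 4.42 CPM in the pituitary and 10.1 CPM in the long bone.

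EQMHCC1 was not the only class I heavy chain gene in the files. By symbol or description, 29 genes were class I heavy chain genes, of which 26 carry no symbol. Class I genes resemble each other and differ between animals, so that reads can be shared among them or lost where an allele differs from the reference genome, and the part of mapping in the levels was not tested. EQMHCC1 took 0.096% to 17.1% of the class I reads of a pituitary library (median 0.391%) and 0.122% to 14.4% of those of a long bone library (median 0.38%). The summed class I level was far more even. Among juvenile pituitaries the DPs had 439 ± 113 CPM (SD, n = 3) and the MHs 195 ± 134 CPM, and among adult pituitaries they had 256 ± 96.3 and 381 ± 141 CPM. The juvenile long bone held 690 ± 166 CPM in DPs and 629 ± 112 CPM in MHs, and the adult long bone 688 ± 229 and 595 ± 238 CPM. The breeds overlapped in both tissues at both stages.

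Other class I genes also differed widely between libraries. Of the 17 class I genes with more than 3 reads in every library, 15 differed over 10-fold between the highest and the lowest library, and the ratio ranged from 5.7 to 616, the latter for EQMHCC1. EQMHCB2, another class I heavy chain, was highest in replicate 1 of the juvenile DPs in both tissues, with 193 CPM in DPPJ and 250 CPM in DPLBJ. In replicate 2 of the same groups, where EQMHCC1 was high, EQMHCB2 had 13.4 and 31.6 CPM. MHCB3 was highest in replicate 3 of the adult MHs, with 20.3 CPM in MHPA and 41.9 CPM in MHLBA. Among class I genes with a mean of at least 1 CPM, the same breed, stage and number was highest in both tissues for 8 of 28 (28.6%), and this held for 8.79% of 14532 genes with that mean level. EQMHCC1 itself was not among the 8, since MHPA replicate 3 was highest in the pituitary and DPLBJ replicate 2 in the long bone.

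The profile over the 29 class I genes was compared between the tissues with Pearson's correlation of log2(CPM + 0.5). It runs across genes within a pair of libraries, and genes are not replicates. For 12 of 12 pituitary libraries the most similar of the 12 long bone libraries had the same breed, stage and number. From the long bone side this held for 11 of 12, and the exception was DPLBA replicate 3, which was closer to MHPA replicate 2 (r = 0.896) than to DPPA replicate 3 (r = 0.888). The correlation was 0.851 to 0.94 between same-numbered libraries and 0.354 to 0.896 between all other pairs. Without EQMHCC1 the match held for 11 of 12 libraries from either side. Over 14 class II chain genes it held for 10 of 12 from either side. Over all 14532 genes it held for 1 of 12 from either side, where same-numbered libraries had a median r of 0.688 and other pairs 0.7. The 7 members other than EQMHCC1 matched for 2 of 12 pituitary and 3 of 12 long bone libraries. The correlations share libraries and are given as a description.

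**Figure D2:**
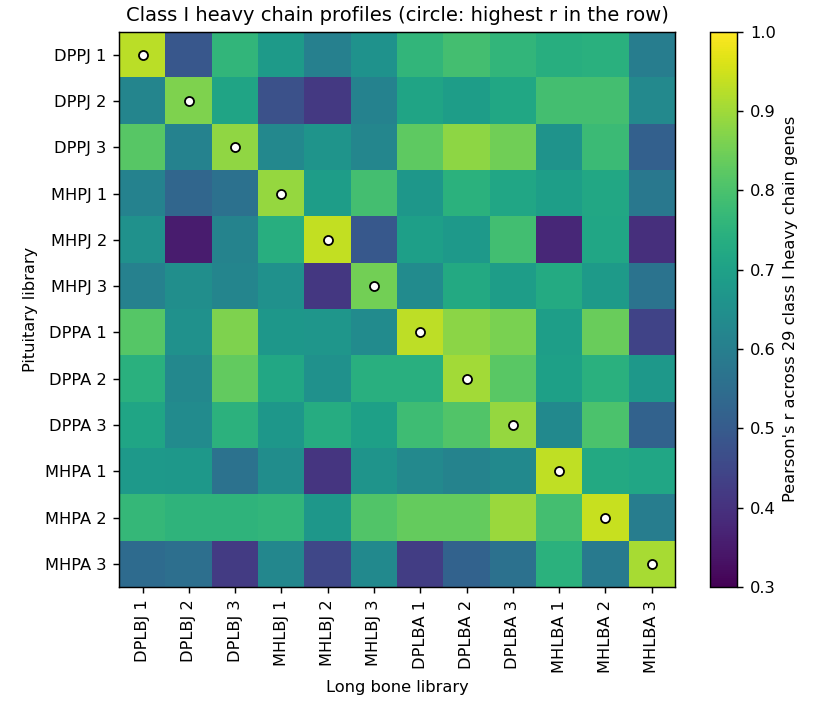
Pearson's r of log2(CPM + 0.5) across 29 class I heavy chain genes between each pituitary library (rows) and each long bone library (columns), coloured from 0.3 to 1. A circle marks the highest r of each row, and all 12 circles lie on the diagonal, where breed, stage and number are the same.

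Between the breeds, EQMHCC1 was lower in adult DPs, and in juveniles the breeds overlapped. The study called a gene differentially expressed at a fold change over 2 with an unadjusted P under 0.05, and this call rule was used here. In the adult pituitary EQMHCC1 had 0.867 ± 0.63 CPM (SD, n = 3) in DPPA and 35.1 ± 36 CPM in MHPA, a log2 difference of -5.36 (SE 1.25), and no DPPA library reached an MHPA library. In the adult long bone it had 2.06 ± 1.41 CPM in DPLBA and 41.6 ± 39 CPM in MHLBA, a log2 difference of -4.36 (SE 0.895), again without overlap. Both differences were past the call rule. Without DPPA replicate 1 and MHPA replicate 1, which had few hormone transcripts, the adult pituitary difference was -5.08 (SE 1.3). In the juveniles the higher mean of DPs rested on replicate 2. The log2 difference was 5.16 (SE 1.98) in the juvenile pituitary, past the call rule, and 4.03 (SE 1.77) in the juvenile long bone, not past it, and the libraries overlapped in both. Without replicate 2 of the DPs it was 0.38 (SE 0.601) in the pituitary and -0.72 (SE 0.865) in the long bone. The call in the juvenile pituitary was also lost without any of the 3 MHPJ libraries, at 5.01 to 5.49 on the log2 scale.

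The breed difference of EQMHCC1 was not that of class I as a whole. On the ratio of group means, the log2 difference between DPs and MHs in the adult long bone was -4.33 for EQMHCC1 and 0.21 for the sum of the 29 class I genes. In the adult pituitary it was -5.34 and -0.57, in the juvenile long bone 4.00 and 0.13, and in the juvenile pituitary 5.24 and 1.17. In the juvenile pituitary, 6 of 27 tested class I genes other than EQMHCC1 were called higher in DPs and 0 lower, where 20.3% of all tested genes were called in either direction. In the adult pituitary 0 of 26 were called higher and 1 lower (2.93% of all tested genes), in the juvenile long bone 1 of 27 higher and 5 lower (13.8%), and in the adult long bone 1 of 27 higher and 2 lower (18.3%). These counts are a description.

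**Figure D3:**
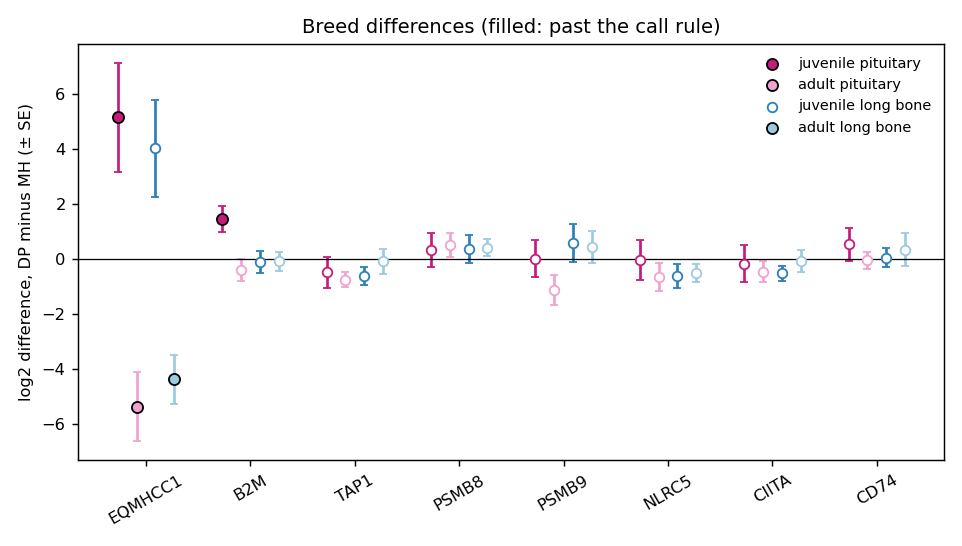
Log2 difference between DPs and MHs (DP minus MH) of the 8 genes in the 4 breed comparisons, with bars of 1 SE from edgeR. Filled points are past the call rule, which holds for EQMHCC1 in 3 comparisons and for B2M in the juvenile pituitary.

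Among the members, 2 of 8 were past the call rule in the juvenile pituitary, where 20.3% of all tested genes were. The count was 1 of 8 in the adult pituitary (2.93% of all tested genes), 0 of 8 in the juvenile long bone (13.8%) and 1 of 8 in the adult long bone (18.3%). Since the members were chosen with these contrasts known, the counts are a description.

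B2M (ENSECAG00000000685), the light chain of all class I molecules, was the only other member past the call rule between the breeds. It had 425, 279 and 611 CPM in the DPPJ libraries and 152, 226 and 80.9 CPM in the MHPJ libraries. The DPPJ libraries were all higher, with means of 439 ± 166 and 153 ± 72.5 CPM (SD, n = 3) and a log2 difference of 1.47 (SE 0.475), or 2.78-fold. It was not past the rule without DPPJ replicate 3 (1.17, SE 0.503) or without MHPJ replicate 1 (1.43, SE 0.583). In the adult pituitary the B2M means were 241 ± 96.4 CPM in DPPA and 311 ± 107 CPM in MHPA, and the libraries overlapped. In the long bone the B2M means of the 4 groups lay between 387 and 417 CPM. In the juvenile long bone the log2 difference of B2M was -0.09 (SE 0.396).

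B2M in the pituitary moved with the hormone transcripts. It was 279 to 611 CPM in the 7 pituitary libraries with hormone transcripts and 80.9 to 226 CPM in the 5 with few, without overlap. DPPA replicate 1 and MHPA replicate 1, the adult libraries among the 5, had 130 and 205 CPM, below the other adult libraries of both breeds. None of the other 7 members separated these libraries. All MHPJ libraries and no DPPJ library belonged to the 5, so the breed and the presence of hormone transcripts cannot be told apart for the juvenile pituitary. In bulk tissue, fewer cells of a type and less RNA per cell cannot be told apart either.

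**Figure D4:**
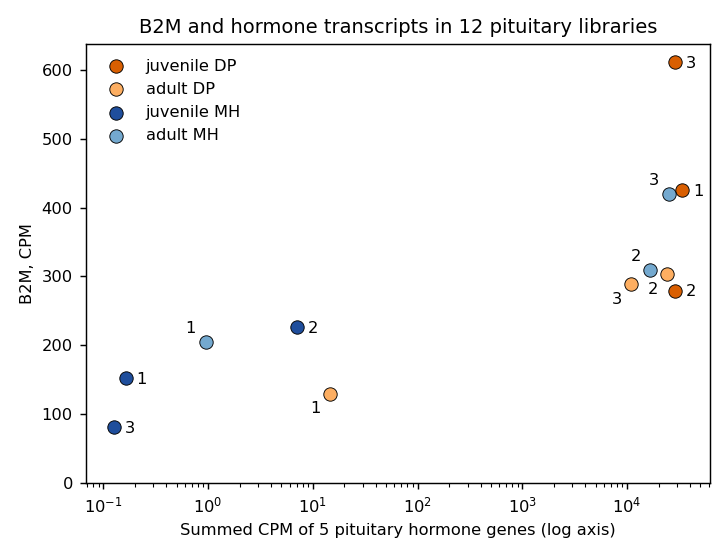
B2M in CPM (y axis) against the summed CPM of 5 pituitary hormone genes (x axis, log) in the 12 pituitary libraries, with the replicate number beside each point. The 5 libraries at or below 14.6 CPM of hormone transcripts had at most 226 CPM of B2M and the other 7 at least 279 CPM.

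Among other genes of class I peptide loading, 3 of 8 were called higher in DPPJ than in MHPJ and 0 lower, where 20.3% of all tested genes were called in either direction, and the median log2 difference of the 10 genes of the list was 1.03, against -0.073 over all tested genes. PDIA3, a disulfide isomerase of the loading complex and of protein folding in general, had 2411 ± 322 CPM in DPPJ and 437 ± 54.9 CPM in MHPJ (SD, n = 3), a log2 difference of 2.42 (SE 0.226, adjusted p = 0.00996, edgeR). PDIA3 also separated the pituitary libraries by hormone transcripts, with 1821 to 2783 CPM in the 7 and 389 to 773 CPM in the 5. Of 16 class II genes beside CD74, 5 were called higher in DPPJ and 0 lower. DRB (ENSECAG00000012933), a class II beta chain, had a log2 difference of 2.97 (SE 0.972, adjusted p = 0.101, edgeR). ENSECAG00000022072 carries the same symbol, and its values are not given here. HLA-DOA, which restrains class II peptide loading, had a difference of 1.78 (SE 0.671, adjusted p = 0.134, edgeR). ENSECAG00000012933 and HLA-DOA passed the call rule but not an adjusted p of 0.05. HLA-DOA also separated the pituitary libraries by hormone transcripts, with 1.05 to 2.35 CPM in the 7 and 0.126 to 0.835 CPM in the 5. ENSECAG00000012933 did not.

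Of 24 tested interferon-response genes, 1 was called higher and 3 lower in DPPJ. This was not above the share over all tested genes, of which 20.3% were called in either direction. IFIT1, an interferon-induced antiviral protein, was lower by a log2 difference of -2.54 (SE 0.589, adjusted p = 0.0488, edgeR). It had 4.6 to 11.9 CPM in the 7 libraries with hormone transcripts and 17.4 to 76 CPM in the 5 with few. RSAD2, also interferon-induced, had a log2 difference of -2.38 (SE 0.76, adjusted p = 0.0952, edgeR) and passed the call rule only. Its levels overlapped, with 0.102 to 1.01 CPM in the 7 and 0.607 to 3.17 CPM in the 5.

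TAP1, PSMB8, PSMB9, NLRC5 and CIITA showed no called breed difference. Of the 3 immunoproteasome genes beside PSMB8 and PSMB9, 2 were called higher in DPPJ and 0 lower, where 20.3% of all tested genes were called in either direction. The 2 genes are named here after their values were seen, so their adjusted p-values are a description. PSMB10, the third catalytic subunit of the immunoproteasome, had 37.4, 34 and 39.4 CPM in DPPJ and 12.6, 20.1 and 10.7 CPM in MHPJ, without overlap, and a log2 difference of 1.30 (SE 0.298, adjusted p = 0.0474, edgeR). PSME2, a subunit of a proteasome activator, had a difference of 1.07 (SE 0.347, adjusted p = 0.0993, edgeR). Neither was called between the breeds in the other 3 comparisons. For both genes, the breed and the presence of hormone transcripts cannot be told apart in the juvenile pituitary. TAP1 had 7.78, 6.98 and 6.52 CPM in DPPA and 8.9, 12.4 and 13.9 CPM in MHPA. The adult pituitary libraries of DPs were all lower for TAP1, but its log2 difference of -0.74 (SE 0.261) was below the fold threshold. The transcript described as antigen peptide transporter 2 had 42.8, 52.5 and 41.1 CPM in DPPJ and 12.7, 36.8 and 10.4 CPM in MHPJ, without overlap, and its log2 difference of 1.13 (SE 0.53) was not past the call rule. It had 28.8 to 52.5 CPM in the 7 pituitary libraries with hormone transcripts and 10.4 to 36.8 CPM in the 5 with few. PSMB9 was at 0.813 to 4.38 CPM in the pituitary, from as few as 16 reads, and its largest breed difference was -1.11 (SE 0.54) on the log2 scale in the adult pituitary. Without DPPA replicate 1 and MHPA replicate 1 this was -1.30 (SE 0.488), past the call rule. NLRC5 had a log2 difference between -0.64 and -0.01 in the 4 comparisons and CIITA between -0.51 and -0.06. CIITA in the juvenile long bone was 16.7, 23.1 and 15.3 CPM in DPLBJ and 26.7, 25.6 and 26.6 CPM in MHLBJ, without overlap, with a log2 difference of -0.51 (SE 0.282).

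MHPJ replicate 2 weighed on these juvenile pituitary values. It had the highest TAP1 (24.7 CPM), NLRC5 (11.9 CPM), CIITA (15.6 CPM) and PSMB8 (28.5 CPM) of all pituitary libraries, and its summed endothelial markers were 908 CPM against 155 to 316 CPM in the other 11. Its MPO, a neutrophil marker, was 19.2 CPM against at most 0.774 CPM in the others, and its summed adipocyte markers were 36.9 CPM against at most 11.7 CPM. Its summed leukocyte markers, at 107 CPM, lay within the pituitary range of 77.4 to 134 CPM. Without it, the log2 difference was 1.43 (SE 0.313) for CD74, 1.31 (SE 0.315) for PSMB8, 1.20 (SE 0.391) for NLRC5, 0.90 (SE 0.357) for CIITA and 0.37 (SE 0.324) for TAP1. CD74, PSMB8 and NLRC5 were then past the call rule, as was B2M, and CIITA and TAP1 were not. The share of all tested genes past the rule in this fit is not given here, so these calls are a description. The part of these cells in this was not tested.

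CD74 (ENSECAG00000008503), the class II invariant chain, was not called between the breeds in any of the 4 comparisons, with log2 differences of 0.54 (SE 0.587) and -0.04 (SE 0.313) in the juvenile and adult pituitary and 0.06 (SE 0.341) and 0.35 (SE 0.602) in the juvenile and adult long bone. In the adult long bone it had 1684, 862 and 1196 CPM in DPLBA and 262, 1411 and 1244 CPM in MHLBA, and the single low library was MHLBA replicate 1. That library was also the lowest of MHLBA for TAP1 (10.2 CPM against 36.9 and 35.8 CPM), CIITA, NLRC5, PSMB8, PSMB9 and B2M, but not for EQMHCC1. Its summed endothelial markers were 792 CPM against 2576 and 2963 CPM in the other MHLBA libraries. Leukocyte markers differed between the breeds in the adult long bone. Of 5 markers of all leukocytes, 5 were called higher in DPLBA, and their summed level was 575 to 1146 CPM against 160 to 301 CPM in MHLBA. Of 9 macrophage and microglia markers, 7 were called higher and 0 lower. Over all tested genes 18.3% were called in either direction. None of the 8 members was called higher in DPLBA. Of 17 class II genes beside CD74, 2 were called higher and 0 lower, below the share over all tested genes. Both carry the symbol DQA, as does ENSECAG00000006522, which was not called. The 2 called genes encode class II alpha chains. Their log2 differences were 2.47 (SE 0.666, adjusted p = 0.0878, edgeR) for ENSECAG00000024259 and 2.33 (SE 0.549, adjusted p = 0.069, edgeR) for ENSECAG00000009142.

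In the juvenile long bone, DPLBJ replicate 2 had the highest PSMB8 (154 CPM) and PSMB9 (11.1 CPM) of all 24 libraries, and its summed leukocyte markers were 1720 CPM against 206 and 1039 CPM in DPLBJ replicates 1 and 3 and 276 to 487 CPM in MHLBJ. Without it the log2 difference of PSMB8 went from 0.36 (SE 0.51) to -0.46 (SE 0.254) and that of PSMB9 from 0.59 (SE 0.675) to -0.51 (SE 0.45). NLRC5 went from -0.61 (SE 0.449) to -1.20 (SE 0.306), past the call rule. The part of leukocytes in this was not tested.

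Between the stages, EQMHCC1 was the only member past the call rule. It was lower in juvenile than adult MHs in the pituitary, with a log2 difference of -6.13 (SE 1.17), and in the long bone, with -4.04 (SE 0.918), and the stages did not overlap in either. In the DP long bone it was higher in juveniles by 4.29 (SE 1.72), and in the DP pituitary the difference of 4.41 (SE 1.87) was not past the rule. Without replicate 2 of the juvenile DPs the DP differences were -0.40 (SE 0.838) and -0.34 (SE 0.867). The adjusted p-values of edgeR were 0.321 for the MH pituitary, 0.998 for the MH long bone, 0.431 for the DP pituitary and 0.988 for the DP long bone. The call rule took 1 of 8 members in the MH pituitary (7.74% of all tested genes), 0 of 8 in the DP pituitary (3.56%), 1 of 8 in the MH long bone (2.91%) and 1 of 8 in the DP long bone (3.14%).

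None of the other 7 members was past the call rule between the stages. Their log2 differences between juveniles and adults lay between -0.06 and 0.34 in the MH long bone and between -0.44 and 0.25 in the DP long bone. In the pituitary they lay between -1.0 and 0.22 in MHs and between -0.17 and 0.88 in DPs. The extremes were those of B2M, at -1.0 (SE 0.459) in MHs and 0.88 (SE 0.404) in DPs, and neither was past the call rule. Without MHPJ replicate 2, B2M (-1.43, SE 0.431), CD74 (-1.09, SE 0.406) and NLRC5 (-1.53, SE 0.537) were past it in MHs, and B2M was past it in DPs without DPPJ replicate 2 (1.13, SE 0.411). The MHPJ libraries and 1 of 3 libraries in each of MHPA and DPPA were those with few hormone transcripts. Whether the stage difference itself differed between the breeds was tested as an interaction. With edgeR 0 of 15200 genes in the pituitary (0%) and 0 of 14735 in the long bone (0%) had an adjusted p under 0.05, while 3094 and 660 had an unadjusted P under 0.05. DESeq2 gave 1253 and 13 genes with an adjusted p under 0.05, among them 1 member in each tissue, EQMHCC1. The interaction contains the breed contrasts known when the members were chosen, so for them it is a description. On the log2 scale that of EQMHCC1 was 10.54 (SE 2.54) in the pituitary and 8.33 (SE 2.21) in the long bone, and that of B2M was 1.90 (SE 0.656) in the pituitary.

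Between the tissues, PSMB8, NLRC5, CIITA, CD74, TAP1 and PSMB9 were lower in the pituitary than in the long bone. All 8 members had a lower fitted level in the pituitary, and these 6 of 8 were past an adjusted p of 0.05 and a fold change of 2, where 38.3% of all tested genes were, in either direction. PSMB8 was 17.4 CPM (median of 12 libraries, range 6.7 to 28.5) in the pituitary and 62.7 CPM (36.2 to 154) in the long bone. The tissues did not overlap for PSMB8, and the log2 difference was -1.91 (SE 0.27, adjusted p = 7.55e-06, edgeR). NLRC5 had medians of 5.82 CPM (2.15 to 11.9) and 20.5 CPM (11.5 to 35.5), and a log2 difference of -1.85 (SE 0.287, adjusted p = 2.05e-05, edgeR). CIITA had medians of 6.15 CPM (3.34 to 15.6) and 25.5 CPM (11.5 to 38.8), and a log2 difference of -1.73 (SE 0.246, adjusted p = 7.87e-06, edgeR). MHPJ replicate 2 was the only pituitary library that reached the long bone range of CIITA.

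CD74 had 367 CPM (142 to 657) in the pituitary and 975 CPM (262 to 1684) in the long bone, a log2 difference of -1.41 (SE 0.268, adjusted p = 0.000174, edgeR). TAP1 had 8.72 CPM (6.52 to 24.7) and 27.2 CPM (10.2 to 36.9), a difference of -1.32 (SE 0.23, adjusted p = 7.25e-05, edgeR). PSMB9 had 1.6 CPM (0.813 to 4.38) and 3.74 CPM (1.66 to 11.1), a difference of -1.21 (SE 0.335, adjusted p = 0.00421, edgeR). Without DPLBJ replicate 2 the difference of PSMB9 was -0.98, under the fold threshold. B2M differed less, with 284 CPM (80.9 to 611) and 421 CPM (264 to 646) and a log2 difference of -0.58 (SE 0.214, adjusted p = 0.0257, edgeR), under the fold threshold. EQMHCC1 had a difference of -1.21 (SE 0.797, adjusted p = 0.194, edgeR) and was not called, but was called without DPPJ replicate 2 (-2.40, SE 0.724). With breed, stage and replicate number as a block, which takes a number as the same horse in both tissues, EQMHCC1 was called lower too (-1.25, SE 0.279, adjusted p = 0.00283, edgeR). The transcript described as antigen peptide transporter 2 had a difference of -0.58 (SE 0.233, adjusted p = 0.0384, edgeR).

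**Figure D5:**
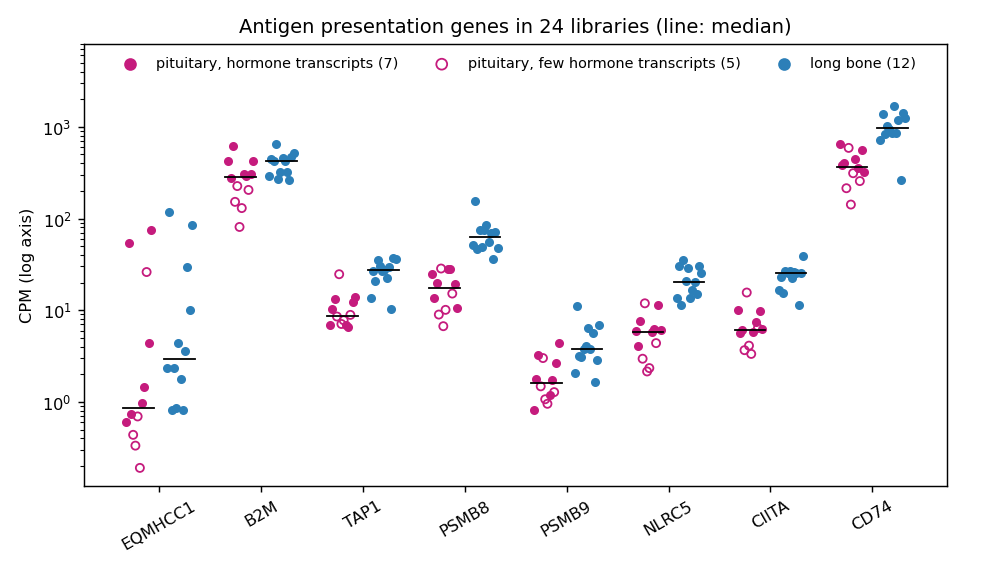
Level of the 8 genes in CPM (y axis, log) in the 24 libraries. Filled and open magenta points are the 7 pituitary libraries with and the 5 with few hormone transcripts, blue points are the 12 long bone libraries and lines are medians of 12 libraries. The magenta and blue points do not overlap for PSMB8 and overlap for the other 7 genes.

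The tissue difference was present with either kind of pituitary library for the 6 called members, each compared with the long bone groups of the same breed and stage. With the 7 libraries with hormone transcripts the same 6 were called, and the log2 difference was -1.77 (SE 0.288) for PSMB8, -1.55 (SE 0.268) for NLRC5 and -1.30 (SE 0.329) for CD74. With the 5 libraries with few hormone transcripts 8 of 8 were called, and these differences were -2.23 (SE 0.427), -2.51 (SE 0.502) and -1.81 (SE 0.529). The share of all tested genes called in these fits is not given here, so the counts are a description. B2M depended on the libraries, with -0.18 (SE 0.2, adjusted p = 0.47, edgeR) for the 7 and -1.34 (SE 0.349, adjusted p = 0.0112, edgeR) for the 5.

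Beside the members, class I heavy chain genes were often lower in the pituitary. Of 28 beside EQMHCC1, 17 were called lower and 0 higher, where 38.3% of all tested genes were called in either direction. Of 61 other pathway genes outside the class I heavy chains, 8 were called lower and 2 higher, below that share. Among these were 17 class II genes beside CD74, of which 5 were called lower and 0 higher. None of the 3 immunoproteasome genes, 3 constitutive proteasome genes, 8 class I loading genes and 5 regulators beside the members was called in either direction. Of 25 interferon-response genes 3 were called lower and 2 higher in the pituitary. IDO1, an interferon-induced enzyme that breaks down tryptophan, had the largest difference (log2 -2.81, SE 0.368, adjusted p = 3.03e-06, edgeR), followed by the T cell chemokine CXCL9 (log2 -2.23, SE 0.406, adjusted p = 0.000114, edgeR). IFI30, a lysosomal thiol reductase of class II processing, was lower too (log2 -1.63, SE 0.532, adjusted p = 0.0125, edgeR). The antiviral genes MX1 (log2 1.93, SE 0.256, adjusted p = 3.55e-06, edgeR) and MX2 (log2 1.70, SE 0.436, adjusted p = 0.00237, edgeR) were higher in the pituitary.

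Many markers of immune and endothelial cells were also lower in the pituitary. There 5 of 5 markers of all leukocytes, 7 of 7 tested markers of T and NK cells, 4 of 6 of B cells, 4 of 9 of macrophages and microglia and 5 of 5 of endothelial cells were called lower. None of these lists had a gene called higher. Of all tested genes 38.3% were called in either direction, and the macrophage and microglia count was near that share. Summed dendritic cell markers overlapped, with 42.8 to 102 CPM in the pituitary and 73.5 to 131 CPM in the long bone. The summed level of the leukocyte markers was 77.4 to 134 CPM in the pituitary and 160 to 1720 CPM in the long bone. Summed endothelial markers were 155 to 908 CPM and 792 to 2963 CPM. Each of the 5 leukocyte markers had more than 3 reads in a library of every group, and the part of these cells in the tissue difference was not tested.

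The likeness of patterns within tissues was described for B2M and CD74, with Pearson's r of log2(CPM + 0.5) over the 24 libraries after subtracting each tissue's mean, among 14531 other genes with a mean of at least 1 CPM. The genes most like CD74 were HLA-DMA, a class II peptide exchange factor (r = 0.879), P53 (0.869), ICAM2, an adhesion molecule (0.868), CCDC107 (0.846) and AGPAT2 (0.839). CIITA and PSMB8 had an r of 0.74 and 0.739 with CD74, in places 38 and 39 of the order. The genes most like B2M were EXOSC8 (0.848), CNOT1 (0.841), ATR (0.838), PNRC1 (0.833) and RPL3L (0.832), and its closest fellow member was CD74 in place 584 (0.618). EQMHCC1 had an r of 0.225 with B2M and -0.038 with CD74.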

How the data were processed

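Per the labels and the study's methods, ribosomal RNA was depleted from total RNA, directional libraries were sequenced, and trimmed reads were mapped to EquCab 3.0. The submitters' processing notes name TopHat2 and edgeR and the study's methods name Salmon, so the mapper is not settled. The authors deposited whole read counts per gene, without normalization, and RPKM, scaled by gene length and library size. The RPKM were used as deposited to compare genes with each other.

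The members and gene lists were chosen with earlier results of these data known. The p-values of listed genes between the breeds are therefore a description. Groups of 3 libraries were compared with edgeR 4.0.16 (quasi-likelihood test, TMM, filterByExpr with a minimum count of 10) over all genes, and p-values were adjusted by Benjamini-Hochberg. The tissues were compared as means of 4 groups each. A fold change over 2 was required for every call, with an unadjusted P under 0.05 for breed and stage and an adjusted p under 0.05 for tissue. All members were named, and of other pathway genes at most the 5 largest called differences per comparison. PSMB10 and PSME2 were named beside these after their values were seen. By the study's methods the replicates of a group were different horses, and both tissues came from the same horses without a stated link by number. Class I genes were found by symbol or by the description in the files, since the reference table holds no descriptions. The split by hormone transcripts, at 100 CPM, was chosen after seeing the data. The scripts were tested on simulated data. Same-numbered libraries of the adult pituitary deviated together (r = 0.384 to 0.65 across genes), and the correlation was not above 0.1 for every number in any other comparison. Those adult libraries are from horses of different breeds, and replicate 1 of both breeds had few hormone transcripts. DESeq2 1.42.0 and limma 3.58.1 were alternatives.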

Additional observations from a re-analysis of the deposited data

How the results depend on the processing

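Counts below are members past the call rule. They are given without the share over all tested genes in each fit and are a description. In the juvenile pituitary (2 members) the count was 1 with DESeq2, which called B2M and gave no p-value for EQMHCC1 (log2 difference 5.17), so that its call was not lost. It was 1 with limma, whether 1 or 0.1 was added to the RPKM before log2, where B2M was called and EQMHCC1 was not, and 0 with the replicate block. It ranged from 0 to 4 when each library was left out in turn. In the adult pituitary (1 member) it was 2 with the libraries that held hormone transcripts and 1 to 2 without each library. In the juvenile long bone (0 members) it was 1 without the filter on low counts or with all 12 libraries of the tissue fitted together, and 0 to 1 without each library. For the stages, the MH pituitary (1 member) gave 2 without the filter and with limma on either scale, and 1 to 4 without each library. The DP pituitary (0 members) gave 2 without TMM, 1 without the filter, 1 with all 12 libraries, and 0 to 1 without each library. The DP long bone (1 member) gave 0 with limma on either scale and with the replicate block, 0 with DESeq2, which again gave no p-value for EQMHCC1 (4.34), and 0 to 1 without each library. The stage difference of EQMHCC1 on the log2 scale was -0.34 to 4.98 in the DP pituitary and -0.40 to 4.96 in the DP long bone without each library. The interaction gave 1 member, EQMHCC1, with DESeq2 in each tissue. Summed over all class I genes in place of EQMHCC1, the log2 difference between the breeds was 1.17 and -0.57 in the juvenile and adult pituitary and 0.13 and 0.21 in the juvenile and adult long bone, and the last reversed. The tissue count of 6 was 4 with limma on log2(RPKM + 1), where TAP1 and PSMB9 fell below the fold threshold, and 5 to 8 otherwise. With breed, stage and number as a replicate block it was 7, with EQMHCC1 at -1.25 (adjusted p = 0.00283, edgeR). Beside the calls given above the block changed no member's call. In the adult pituitary EQMHCC1 stayed the only member called with the block (-4.92). Same-numbered libraries there are different horses, and replicate 1 of both breeds had few hormone transcripts, so the block does not pair animals. Leaving out TMM moved the median log2 difference of all genes from 0.0316 to 0.236 between the tissues, and all 8 members stayed lower in the pituitary. The class I profile matched by number for 11 or 12 of 12 pituitary libraries with other pseudocounts, RPKM or without EQMHCC1. From the long bone side this held for 10 to 12 of 12. These settings were chosen after seeing the data. Whether a number is the same horse in both tissues was not tested. The causes were not tested. EQMHCC1 had 4 to 30 reads in most libraries, which limits its low levels.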
